A study of Mus musculus with 32 samples.

Results

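The comparison described here is high fat diet against normal diet in the libraries labelled WT, read gene by gene within cell classes of epididymal fat. It used the 10235 barcodes of these 2 libraries in which 300 or more genes were seen and mitochondrial UMIs made up 10% or less, 5187 in high fat and 5048 in normal diet, of 19564 such barcodes in the series and 22703 before that filter. UMIs are counted transcript molecules. Both libraries came from C57BL/6 mice that received diphtheria toxin for 7 days after 16 weeks of either diet. The study also holds the same diets in CD169-DTR mice, which carry the toxin receptor under the control of the gene for CD169, a surface lectin of resident macrophages. Each of the 4 groups is 1 library of stromal vascular fraction cells, the cells left when fat is digested and the floating adipocytes are taken off. CD45-positive (immune) and CD45-negative cells were sorted apart and mixed 1:1, and most F4/80-high macrophages and Ly6C-high monocytes were left out of the sort. The number and age of the mice behind a library are not given in the sources used here.

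With 1 library a side there is no replicate check, so no test was run and no p-value is given. Every interval in parentheses after a log2 ratio is an exact 95% interval that covers counting error only. Siglec1, the gene of CD169, was at 0.140 CPM (UMIs per 1000000 UMIs) in normal and 1.12 CPM in high fat diet labelled WT, against 3.49 and 3.01 CPM in the libraries labelled CD169-DTR. That order goes against the labels, so the libraries are called by their labels throughout. In the normal diet library 237 barcodes, and in the high fat library 22, carried the sequence of a barcode in another library with under 10% of its UMIs. These shallow copies were removed, as were 66 and 67 barcodes called doublets, and 4749 normal diet and 5098 high fat cells were kept, with medians of 6608 and 7820.5 UMIs. Keeping the copies, or removing every barcode sequence found in more than 1 library (72 were found in both of these), left each count of called genes within 1.5 times of the value given here.

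Fat tissue holds, beside adipocytes, fibroblast-like progenitors that can become adipocytes, a dense capillary bed that hands fatty acids to them, and resident immune cells. In obesity macrophages gather around dying adipocytes and take up their lipid. Cells that make cholesterol switch on the genes of its synthesis together through the transcription factor SREBP2 when membrane sterol is low, and switch them off when sterol is plentiful. Secretory cells answer a load of unfolded protein in the endoplasmic reticulum by raising its chaperones.

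Cells were put into classes by markers: at least 3 markers of a class detected, with a share of its markers 0.2 above that of every other class. This placed 3701 normal diet and 4241 high fat cells, and left 22.1% and 16.8% undecided. The largest undecided set had endothelial and adipocyte markers at once, 196 cells in normal and 6 in high fat diet. Among the 10 genes most raised in a class over the other classes, 2 to 6 were its own markers in 8 of the 9 classes compared and 0 in fibroblasts, and cDC2 (type 2 conventional dendritic cells) had 1 marker of another class. In cDC2 43.8% of cells lay within 0.1 of the margin, against 1.38% in fibroblasts. Macrophages were 6.96% of 1781 gated immune cells in normal and 26.6% of 1927 in high fat diet (exact binomial intervals 5.82 to 8.24% and 24.6 to 28.6%). T cells were 14.9% and 25.01%, NK cells 9.15% and 9.44%, and fibroblasts 54.3% of 1905 and 77.9% of 2301 non-immune cells. In the other direction, cDC2 were 16.2% and 7.99%, group 2 innate lymphoid cells (ILC2) 8.76% and 3.63%, B cells 15.6% and 10.0%, and endothelial cells 36.4% and 20.6%. The sort itself can set these shares, since it removed part of the macrophages and monocytes.

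Within a class, a gene was read when it had at least 50 UMIs over both libraries. It is called higher or lower when its level differed at least 2-fold and its interval left out 0. Fibroblasts (1034 normal diet and 1792 high fat cells) had 339 genes called higher and 450 lower of 11163, which is 3.04% and 4.03%. Macrophages (124 and 512 cells) had 395 higher and 217 lower of 8216, 4.81% and 2.64%. Endothelial cells (694 and 473) had 47 and 145 of 7555, 0.622% and 1.92%. A larger share of genes was thus called in fibroblasts and macrophages than in endothelium. The median log2 ratio over all genes read lay between -0.08 (fibroblasts) and 0.09 (macrophages) in the 9 classes.

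Among the other immune classes, B cells (278 and 193 cells) had 37 genes higher and 154 lower of 5226, 0.708% and 2.95%. Their median depth was 5889.5 UMIs a cell in normal and 3118 in high fat diet. T cells (266 and 482) had 91 and 75 of 6635, 1.37% and 1.13%. The cDC2 (289 and 154) had 51 and 92 of 5394, 0.945% and 1.71%. Type 1 conventional dendritic cells (cDC1, 289 and 199) had 51 and 38 of 6330, 0.806% and 0.6%. NK cells (163 and 182) had 21 and 31 of 3598, 0.584% and 0.862%. The ILC2 (156 and 70) had 30 and 29 of 2041, 1.47% and 1.42%. The split between directions moved with the scaling in 5 classes. Under TMM factors it was 400 higher and 340 lower in fibroblasts, 33 and 56 in cDC1, 27 and 127 in cDC2, and 16 and 57 in ILC2. With every cell scaled to the same total it was 98 and 164 in endothelium. TMM moved the ratio of every gene by 0.10 in fibroblasts, -0.11 in cDC1, -0.12 in cDC2 and -0.14 in ILC2 on the log2 scale. The naming rule admits only genes with 1 sign under the 3 scalings.

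**Figure D1:**
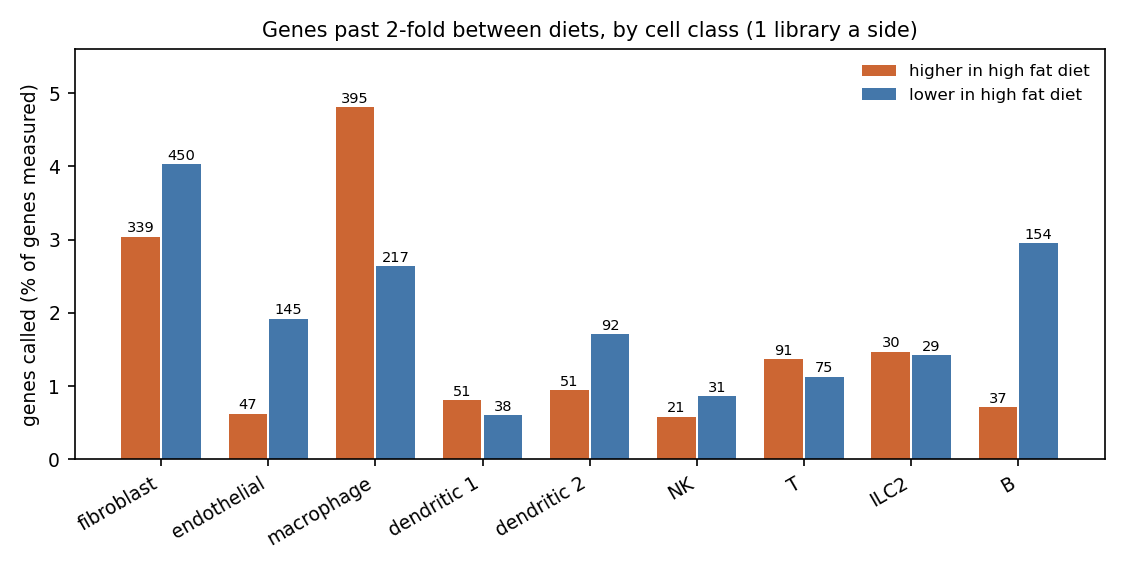
Genes called higher (orange) and lower (blue) in high fat diet as a percentage of the genes read in each of the 9 cell classes, with the number of genes above each bar. Macrophages have the tallest bar for higher genes (4.81%) and fibroblasts for lower genes (4.03%), and 1 library stands on each side.

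Few genes were called in many classes. Counted over the genes that the naming rule allows here (outside the interferon response, matrix and cytotoxic lists, and no class markers), 837 genes were called higher and 892 lower in at least 1 class. Of these, 9 genes were called higher and 26 lower in at least 3 classes, 10 were lower in at least 4, and no gene was higher in 4. Among the 9, Gdf15 (a stress hormone of the TGF-beta family, at chr8:70629393-70632456 in GRCm38) was at 2.25 CPM (23 UMIs) in normal diet and 21.7 CPM (441 UMIs) in high fat diet in fibroblasts, a log2 ratio of 3.27 (2.67 to 3.95). In endothelium it was at 65.5 and 242 CPM, 1.88 (1.64 to 2.13). In macrophages it was at 158 and 423 CPM, 1.42 (1.22 to 1.63). The normal and high fat intervals did not overlap in any of these 3 classes, and the fibroblast ratio exceeded the macrophage ratio by 1.86 (1.22 to 2.49) on the log2 scale. In normal diet 42.5% of the macrophage Gdf15 UMIs came from 1 cell.

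Acp5, which encodes tartrate-resistant acid phosphatase of lysosomes, was at 3.32 CPM (34 UMIs) in normal diet and 46.5 CPM (944 UMIs) in high fat diet in fibroblasts. Its log2 ratio there was 3.81 (3.31 to 4.35), against 1.98 (1.64 to 2.35) in macrophages and 1.41 (0.68 to 2.16) in cDC2. The fibroblast ratio was 2.40 (1.54 to 3.25) above that of cDC2. If all macrophage markers in fibroblasts were free RNA, it would have given 0.265 and 1.28 CPM of Acp5 in fibroblasts (the macrophage level of the gene times the ratio of the summed macrophage markers in fibroblasts to those in macrophages), and its part in the measured level was not tested. Acot7, an acyl-CoA thioesterase, was higher by a like amount in fibroblasts (9.57 and 28.4 CPM, 1.57, interval 1.26 to 1.89), endothelium (1.19, interval 0.88 to 1.51) and cDC1 (1.06, interval 0.60 to 1.52). The gap between its highest and lowest class was 0.51 (-0.03 to 1.05).

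Plin2, the coat protein of lipid droplets, was at 908 CPM in normal diet and 2272 CPM in high fat diet in macrophages, 1.32 (1.24 to 1.41). In cDC2 it was at 80.2 and 196 CPM, 1.29 (1.01 to 1.56), and in B cells at 27.7 and 107 CPM, 1.95 (1.45 to 2.47), though 57.3% of the B cell UMIs in high fat diet came from 1 cell and the ratio was 0.83 without the cell richest in it on each side. Klf2, a transcription factor of quiescent lymphocytes and of macrophages, had ratios of 1.2999 (1.13 to 1.47) in macrophages, 1.03 (0.87 to 1.20) in T cells and 1.17 (0.69 to 1.65) in ILC2. The ILC2 value was 0.59 without the richest cell of each library. H2afx, a histone of the DNA damage response, was higher in macrophages, cDC2 and T cells by 1.02 to 1.14. Giving the clusters of a class equal weight in both libraries (equal cluster mix) left H2afx at 0.52 in cDC2 and 0.74 in T cells, and Klf2 at 0.67 in T cells, each under 2-fold. Of the 213 values of a gene in a class that the naming rule chose, 159 could be read this way, and 46 of these were then under 2-fold.

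Meg3, a long noncoding RNA abundant in fibroblasts, was at 639.9 CPM in normal diet and 1603 CPM in high fat diet there, 1.32 (1.29 to 1.36), and at 0.20 under equal cluster mix. Its high values in cDC2 (2 and 67 UMIs) and T cells (5 and 51 UMIs) rested on single cells, which held 86.6% and 49.0% of the high fat UMIs. The summed level of 8 fibroblast markers moved the same way in these classes, from 316 to 509.5 CPM in cDC2 and from 169 to 355 CPM in T cells, and its part in the Meg3 values was not tested. Ube2c, a ubiquitin-conjugating enzyme of dividing cells, was called higher in macrophages, at 46.3 and 93.04 CPM, 1.01 (0.63 to 1.41), in cDC2 and in endothelium, where its 16 and 44 UMIs came from 4 and 5 cells. The macrophage value stood at the threshold: it was 0.34 with every cell scaled to the same total and 0.43 with a gate margin of 0.4, and was at least 2-fold in 5 of the 12 alternatives that could be run. Ube2c was lower in NK cells, and the cDC2 and NK values are given with the cell cycle genes.

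Of the genes lower in many classes, Lars2 was called in 6, more than any other. It encodes the mitochondrial leucyl-tRNA synthetase. In macrophages it was at 108 CPM in normal diet and 37.7 CPM in high fat diet, -1.51 (-1.81 to -1.21), and in fibroblasts at 96.1 and 46.0 CPM, -1.06 (-1.20 to -0.93). In cDC1, cDC2, T and B cells its ratio lay between -1.17 and -1.03. The gap between its largest and smallest ratio among the 6 was 0.49 (-0.03 to 1.00), so the classes could not be told apart at this depth. Under equal cluster mix the ratio was -0.85 in fibroblasts and -0.94 in T cells. In the libraries labelled CD169-DTR Lars2 was lower in high fat diet too in macrophages, -0.998 (-1.23 to -0.76), and fibroblasts, -0.66 (-0.76 to -0.56), and in cDC1 its interval held 0, -0.27 (-0.95 to 0.40).

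Flrt3, a cell adhesion protein that binds latrophilins and UNC5 receptors, was lower in 5 classes and by unequal amounts. It was at 174 CPM in normal diet and 45.7 CPM in high fat diet in cDC2, -1.93 (-2.33 to -1.55), at 114 and 24.2 CPM in macrophages, -2.23 (-2.56 to -1.91), and at 63.4 and 8.57 CPM in T cells, -2.89 (-3.68 to -2.17). B cells had 68 and 1 UMIs, -4.86 (-10.18 to -2.33). Of these, 2 and 0 lay in the 1 B cell cluster with at least 20 cells from each library, which held 91.4% of the normal diet B cells. The fibroblast ratio was the smallest at -1.44 (-1.83 to -1.05). In the other pair of libraries Flrt3 was higher in high fat diet in fibroblasts, 0.47 (0.25 to 0.70), and in macrophages, 0.27 (0.01 to 0.54).

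Stress and survival genes made up part of the lower set. Mt2, a metallothionein that binds zinc and copper, had ratios from -1.46 in T cells to -1.02 in B cells over 5 classes, with 383 and 147 CPM in macrophages and 461 and 178 CPM in cDC2. The T cell value depended on how T cells were drawn, at -0.62 under equal cluster mix and -0.0088 with cluster-based classes. Slc7a11, the cystine importer that feeds glutathione synthesis, was at 210.0 and 81.7 CPM in macrophages, -1.36 (-1.57 to -1.15), and had ratios of -1.54 in cDC2 and -1.75 in T cells. Bcl2a1a, an antiapoptotic gene with near-identical copies whose reads may have been split, was at 310.0 and 74.9 CPM in cDC2, -2.05 (-2.36 to -1.75), and had ratios of -1.23 in macrophages, -1.63 in T cells and -2.20 in B cells. Under equal mix Slc7a11 was at -0.81 in macrophages, and Bcl2a1a at -0.84 there and -0.57 in T cells, under 2-fold. In B cells 2 and 3 of the 86 and 8 Bcl2a1a UMIs lay in the 1 cluster with at least 20 cells from each library. Cd274, which encodes the checkpoint ligand PD-L1, was lower in fibroblasts (8.01 and 2.27 CPM, -1.82, interval -2.38 to -1.28), endothelium (89.9 and 41.7 CPM, -1.11, interval -1.48 to -0.75), macrophages (-1.39) and cDC2 (-1.31). Under equal mix its fibroblast value was -0.67, under 2-fold, while the endothelial and cDC2 values were -1.18 and -1.52. In fibroblasts and macrophages labelled CD169-DTR it was lower as well, -2.20 (-2.43 to -1.97) and -0.97 (-1.27 to -0.67).

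Lyz1 and Retnla, genes of phagocytes, were lower in 4 and 5 classes, but in the classes other than macrophages few cells carried them. In macrophages Lyz1 was at 979.6 CPM in normal diet and 297 CPM in high fat diet, -1.72 (-1.82 to -1.62), and Retnla, a resistin-like protein induced by interleukin 4, at 11839 CPM in normal diet and 3967 CPM in high fat diet, -1.58 (-1.61 to -1.55). In T cells Retnla was at 2289.7 and 848 CPM, -1.43 (-1.51 to -1.35), and in B cells at 1164 and 302 CPM, -1.94 (-2.14 to -1.76). The Lyz1 ratio was -1.69 (-2.10 to -1.29) in cDC2 and -1.23 (-1.92 to -0.60) in B cells. In endothelium 98.7% of the normal diet Lyz1 UMIs lay in 1 cell, and in NK cells 88.5% of those of Retnla did. Without the richest cell on each side Lyz1 had 2 and 5 UMIs left in endothelium, a ratio of 1.83 (-0.78 to 5.22), and Retnla 11 and 8 in NK cells, -0.30 (-1.82 to 1.15). With equal cluster mix Retnla was at 0.59 in endothelium, -0.76 in macrophages and -0.69 in B cells, and with cluster-based classes at 1.19 in T cells. Cells of a cluster with Fcrls, Retnla and Mgl2 in the lead made up 12.4% of the gated T cells in normal and 9.13% in high fat diet.

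**Figure D2:**
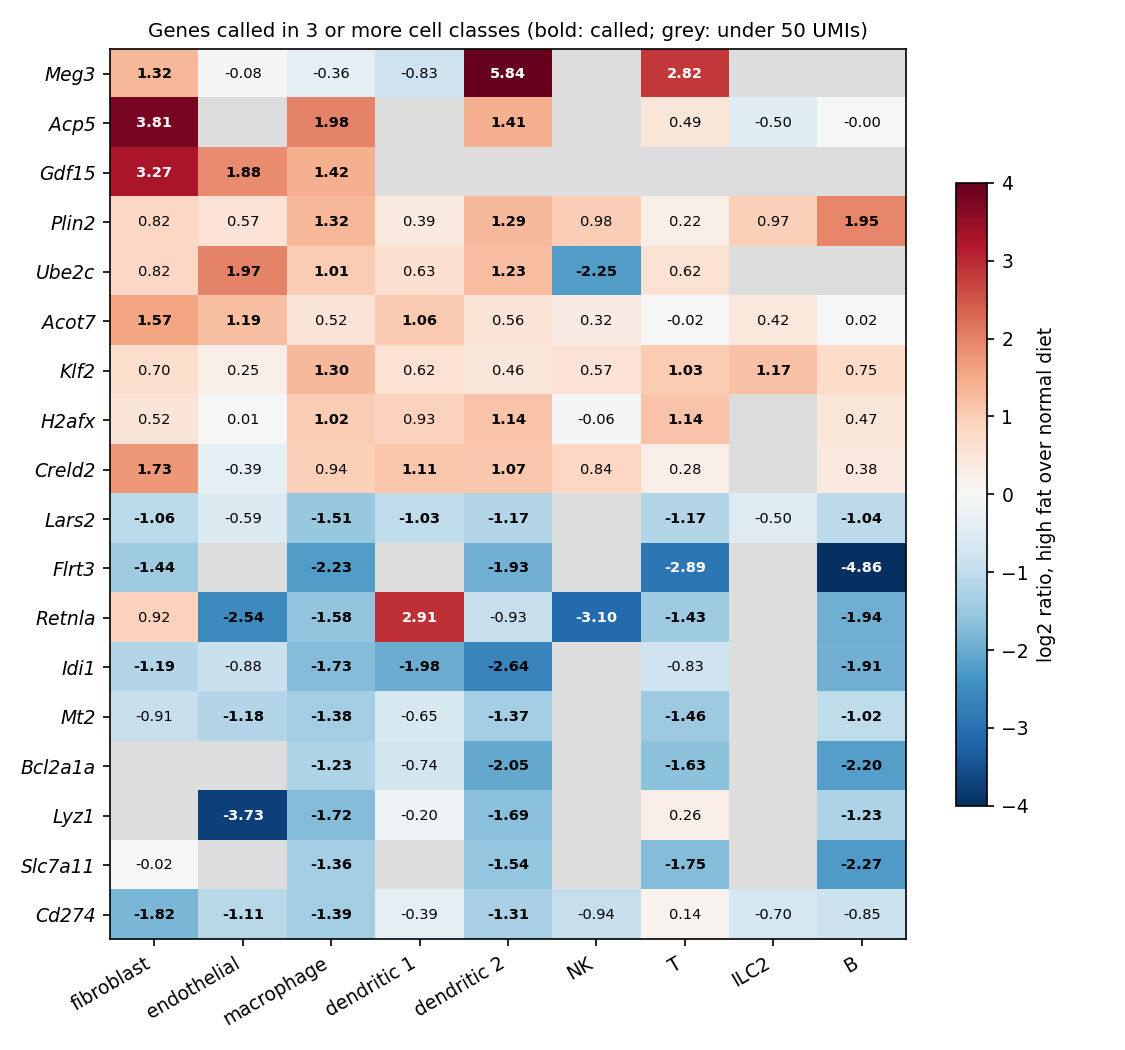
Log2 ratios of high fat over normal diet for 18 genes called in at least 3 classes and chosen by the naming rule, 1 row a gene and 1 column a class. Red is higher and blue lower in high fat diet, bold values are called, and grey cells had under 50 UMIs; Lars2 is blue in 8 of 8 measured classes, and Retnla is red in cDC1 and blue in NK cells.

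Genes of cholesterol synthesis were called lower in 7 classes, with the lowest medians in the dendritic cells. Of the 25 genes of the list, 13 could be read in cDC2, and 7 were called lower and 0 higher, where 1.71% of all genes were called lower, with a median log2 ratio of -1.01 against 0.06 over all genes of the class. In cDC1 6 of 13 were lower, where 0.6% of all genes were (median -0.86). B cells had 5 of 10 lower, against 2.95% of all genes (-0.77), macrophages 6 of 20, against 2.64% (-0.59), and T cells 2 of 16, against 1.13% (-0.67). Fibroblasts had 1 of 23, against 4.03% of all genes (-0.38), and endothelium 1 of 11, against 1.92% (-0.34), so neither single call stood apart from that background. None was called higher in any class. The macrophage median was 0.064 when the gate margin was 0.4, so its direction depends on which cells pass as macrophages.

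Idi1, the isomerase that makes the 5-carbon building block of sterols interchangeable, was called in 5 classes. It was at 53.5 CPM (128 UMIs) in normal diet and 8.56 CPM (12 UMIs) in high fat diet in cDC2, -2.64 (-3.63 to -1.79), at 21.6 and 5.48 CPM in cDC1, -1.98 (-2.96 to -1.11), and at 28.4 and 8.54 CPM in macrophages, -1.73 (-2.34 to -1.11). In fibroblasts it was at 51.2 and 22.5 CPM, -1.19 (-1.37 to -1.002), and at -0.66 under equal cluster mix, and the cDC2 ratio was further from 0 by 1.46 (0.58 to 2.33). Cyp51, the lanosterol demethylase, was at 66.0 CPM (158 UMIs) in normal diet and 12.1 CPM (17 UMIs) in high fat diet in cDC2, -2.44 (-3.26 to -1.72). In cDC1 it was at 34.6 and 12.2 CPM, -1.50 (-2.14 to -0.90), and in B cells at 95.6 and 41.0 CPM, -1.22 (-1.80 to -0.69).

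Other members differed in size. Sqle, the squalene epoxidase, had 50 and 6 UMIs in cDC1, -2.65 (-4.16 to -1.43). Fdps, which makes farnesyl pyrophosphate, was at 50.7 and 24.4 CPM there, -1.05 (-1.51 to -0.61), though it was -0.16 with a gate margin of 0.4. Insig1, which holds SREBP2 back in the endoplasmic reticulum, was lower in macrophages, -1.20 (-1.59 to -0.80). Stard4, a carrier of cholesterol between membranes, had 70 and 7 UMIs in cDC2, -2.55 (-3.92 to -1.43). Hmgcs1, the synthase at the head of the pathway, was called in cDC2 (-1.08, interval -1.71 to -0.48) and B cells (-1.17, interval -2.25 to -0.23), and was at -0.38 (-0.50 to -0.25) in fibroblasts.

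The promoters of 3 of these genes are shown because members that move together are commonly read through shared upstream letters: Cyp51, Idi1 and Hmgcs1. Each line holds the 250 bases before the start site in RefSeq on GRCm38.p6, 5′ to 3′ on the gene's strand, for Cyp51 chr5:4104698-4104947 (minus strand), for Idi1 chr13:8885356-8885605 (plus) and for Hmgcs1 chr13:119690101-119690350 (plus). Capitals mark CCAAT boxes on either strand and, in Hmgcs1, the sterol regulatory element TCACCCCAC.
Cyp51: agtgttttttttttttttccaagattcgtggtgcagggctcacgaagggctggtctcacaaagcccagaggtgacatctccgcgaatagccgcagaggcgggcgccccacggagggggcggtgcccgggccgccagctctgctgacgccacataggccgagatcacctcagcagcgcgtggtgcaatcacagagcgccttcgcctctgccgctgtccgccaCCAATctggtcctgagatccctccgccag
Idi1: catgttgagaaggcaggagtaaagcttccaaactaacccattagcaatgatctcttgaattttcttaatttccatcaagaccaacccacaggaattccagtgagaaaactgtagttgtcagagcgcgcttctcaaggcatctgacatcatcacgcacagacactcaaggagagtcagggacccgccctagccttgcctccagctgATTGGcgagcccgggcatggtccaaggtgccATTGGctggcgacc
Hmgcs1: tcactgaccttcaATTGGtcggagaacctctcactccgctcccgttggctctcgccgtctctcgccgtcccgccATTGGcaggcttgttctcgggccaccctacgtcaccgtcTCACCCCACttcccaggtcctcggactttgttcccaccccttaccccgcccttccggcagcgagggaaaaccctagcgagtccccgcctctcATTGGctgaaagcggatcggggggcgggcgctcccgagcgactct
Searched on both strands, the letters CCAAT stood in 16 of the 20 promoters matched to 17 sterol genes and in 33.8% of all 32851 promoters of this length. The element TCACNCCAC stood in 1 of the 20, of Hmgcs1, and in 1.05% of all. Counted from the start site, the CCAAT box of Cyp51 began at -29, those of Idi1 at -45 and -14, and those of Hmgcs1 at -237, -176 and -45, with its sterol element at -137. The 2 motifs shared no bases in these 3 windows, and these matches describe letters, not bound factors.

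The libraries labelled CD169-DTR, which share no library with this comparison, showed the opposite direction for this list in fibroblasts, macrophages and dendritic cells. In fibroblasts 24 of 25 sterol genes were called higher in high fat diet, with a median of 2.18, where 8.82% of all genes of the class were called higher. Idi1 was at 2.35 (2.13 to 2.58) there, against -1.19 in the pair labelled WT. In cDC1 8 of 11 were higher, against 2.22% of all genes (median 1.43), with Cyp51 at 2.34 (1.70 to 3.03). In macrophages 7 of 24 were higher, against 1.88% of all genes (0.78), and in cDC2 2 of 6, against 2.87% (0.85). In NK cells 1 of 9 was higher, against 1.57% (0.62), and in T cells 0 of 4, against 1.21% (0.08). The size order of the classes also differed, with fibroblasts furthest from 0 in that pair and cDC2 in this one. Genotype and the single libraries cannot be told apart as sources of the opposite signs, with 1 library a group.

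**Figure D3:**
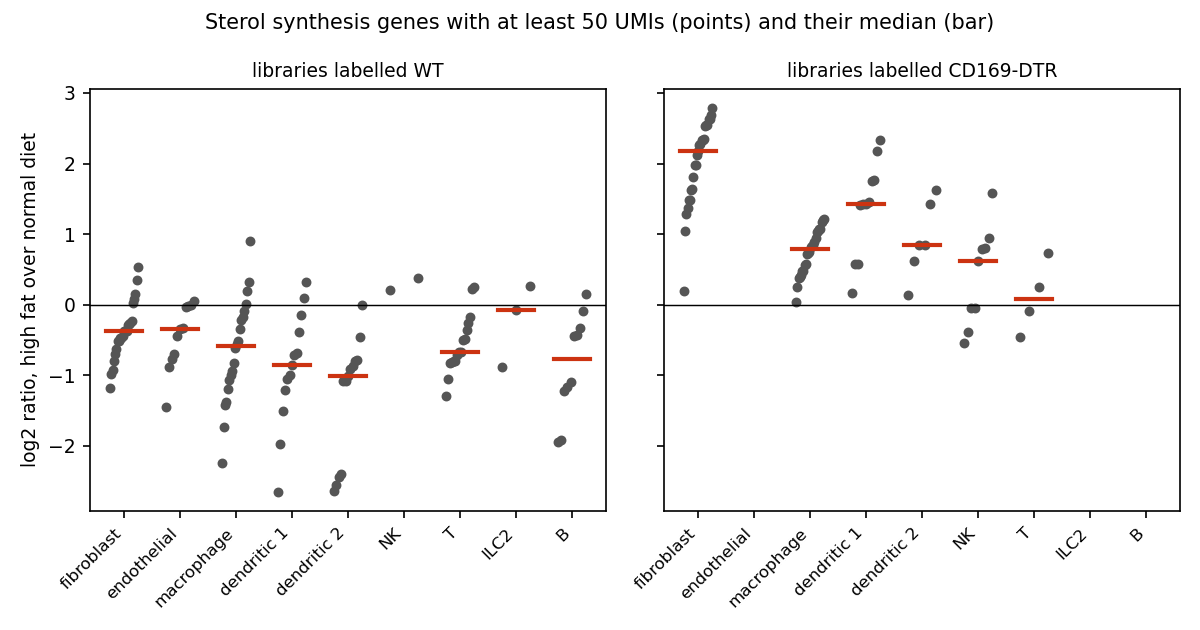
Log2 ratio of high fat over normal diet (y axis) for each sterol synthesis gene with at least 50 UMIs (points) by class, with the median as a bar, in the libraries labelled WT (left) and CD169-DTR (right). The medians lie below 0 at left (-1.01 in cDC2) and above 0 at right (2.18 in fibroblasts); a class with no bar had under 3 genes or too few cells.

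Beside Acp5, 4 genes stood at the head of the fibroblast calls. Mlana, known as the melanocyte antigen MART-1, was at 0.195 CPM (2 UMIs) in normal diet and 10.0 CPM (204 UMIs) in high fat diet, found in 2 and 97 cells, with a log2 ratio of 5.68 (3.81 to 8.74). In the other direction Mmd2, a membrane protein of the progestin receptor family, was at 23.7 CPM (243 UMIs) in normal diet and 0.542 CPM (11 UMIs) in high fat diet, -5.45 (-6.47 to -4.59). Tmem114, a transmembrane protein of the claudin family, was lower with 89 and 2 UMIs, -6.46 (-9.53 to -4.57). Reep6, which shapes the endoplasmic reticulum, was at 11.1 and 0.542 CPM, -4.36 (-5.40 to -3.47). The rule chose these 4 genes by interval bounds far from 0, so intervals of the 2 diets that do not overlap add no support.

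The fibroblasts of the 2 diets were spread unlike over clusters, and many values differed under equal cluster mix. The 5 clusters with at least 20 cells from each library held 99.3% of the normal diet and 94.4% of the high fat fibroblasts. A cluster led by Mmd2, St8sia6 and Dok7 held 49.5% of the normal diet fibroblasts (512 cells) and 47 high fat cells. A cluster led by Gzma, Mfap4 and Chrdl1, with Gdf15 among its leading genes, held 39.8% of the high fat fibroblasts (713 cells) and 26 normal diet cells, and a further one led by Sgip1 and Wnt4 24.5% and 40.1%. With clusters weighted alike in both libraries, Mlana was at 4.85, Acp5 at 1.56, Gdf15 at 2.29, Mmd2 at -3.45, Tmem114 at -5.81 and Reep6 at -3.03. The 6 genes stayed past 2-fold in the same direction. Since the normal diet cluster was led by Mmd2 itself, its equal-mix value rests on what is left of the gene in the other clusters.

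Of 26 members of the unfolded protein and amino acid response read in fibroblasts, 5 were called higher and 2 lower, where 3.04% and 4.03% of all genes were, with a median of 0.30 against -0.08 over all genes. The same shares of all genes stand beside the fibroblast lists that follow. Hspa5, the main chaperone BiP, was at 1028 CPM in normal diet and 2489 CPM in high fat diet, 1.28 (1.25 to 1.31). Manf, a secreted survival factor of stressed cells, was at 203 and 549 CPM, 1.44 (1.37 to 1.51). Creld2, a chaperone-like protein of the same response, was at 31.6 and 105 CPM, 1.73 (1.56 to 1.90), and was also called in cDC1 (1.11, interval 0.74 to 1.48) and cDC2 (1.07, interval 0.52 to 1.62). Its endothelial ratio was -0.39, on the other side of 0. These 3 genes held under equal cluster mix in fibroblasts, at 1.31, 1.52 and 1.62. The pair labelled CD169-DTR went the other way for all 3, at -0.71 (-0.73 to -0.69), -0.62 (-0.66 to -0.57) and -0.53 (-0.65 to -0.41). Psat1, a serine synthesis enzyme of the amino acid arm, was lower at 73.3 and 19.997 CPM, -1.87 (-2.05 to -1.70), and at -0.87 under equal mix.

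Secreted growth signals split. Of 35 genes of Wnt, TGF-beta and BMP signalling 5 were higher and 3 lower (median 0.01). Inhba, the subunit of activin A, was at 7.62 CPM (78 UMIs) in normal diet and 58.3 CPM (1183 UMIs) in high fat diet, 2.93 (2.60 to 3.28). Dkk3, a secreted protein of the Dickkopf family, was at 1.17 and 9.51 CPM, 3.02 (2.18 to 4.00), and Wnt2, a canonical Wnt ligand, at 1.27 and 6.30 CPM, 2.31 (1.49 to 3.26). The 3 lower genes were Nog (4.40 and 1.08 CPM), Bmp7 (12.7 and 4.04 CPM) and Wnt5a (51.4 and 23.8 CPM), that is, a BMP antagonist, a BMP ligand and a noncanonical Wnt ligand. Under equal cluster mix Inhba was at 0.99 and Dkk3 at 0.30, both under 2-fold, while Wnt2 was at 2.41. In the pair labelled CD169-DTR these higher genes had the same sign, Inhba at 1.96 (1.82 to 2.11), Dkk3 at 2.50 (2.15 to 2.86) and Wnt2 at 1.70 (1.39 to 2.03).

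Complement and acute phase genes went in opposite directions within 1 list, with 3 of 19 higher and 6 lower (median 0.11). C4b, a central component of the classical complement pathway, was at 99.6 CPM in normal diet and 513 CPM in high fat diet, 2.37 (2.27 to 2.46), and 2.08 under equal mix. The haptoglobin gene Hp was at 1088 CPM in normal diet and 409 CPM in high fat diet, -1.41 (-1.45 to -1.37), and the ceruloplasmin gene Cp at 779 CPM in normal diet and 311 CPM in high fat diet, -1.32 (-1.37 to -1.28). Their ratios under equal mix were -0.38 and -0.30. Cfd (adipsin), a product of adipocytes, had 73 and 1 UMIs, -7.18 (-12.50 to -4.65). Markers of adipocytes, of which Cfd is 1, were lower along with it, at 187 and 4.88 CPM summed over 7 genes in fibroblasts. Their part in the Cfd value was not tested. C4b had the opposite sign in the other pair, -0.62 (-0.67 to -0.56), while Hp and Cp had the same, -1.96 (-1.99 to -1.93) and -2.46 (-2.51 to -2.41).

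Lipid genes of fibroblasts were mixed, with 3 of 31 members of fatty acid uptake and storage higher and 3 lower (median -0.47). Angptl4, a secreted inhibitor of lipoprotein lipase, was at 105 CPM in normal diet and 371 CPM in high fat diet, 1.83 (1.73 to 1.92). Plin4, a lipid droplet coat protein, was at 1.56 and 5.86 CPM, 1.91 (1.15 to 2.76). Vldlr, the receptor for very low density lipoprotein, was lower at 157 and 62.4 CPM, -1.33 (-1.44 to -1.22), and Dgat2, which makes triglyceride, at 9.18 and 1.48 CPM, -2.64 (-3.28 to -2.03), with 51.1% of its normal diet UMIs in 1 cell and a ratio of -0.97 under equal mix. Angptl4 is also a target of glucocorticoids, and in that list of 19 it was the 1 gene higher while 4 were lower (median -0.40). These were Zbtb16 (62.4 and 22.2 CPM, -1.49, interval -1.67 to -1.31), Fkbp5 (49.1 and 23.5 CPM, -1.06, interval -1.25 to -0.88), Sult1a1 (85.1 and 41.5 CPM, -1.04, interval -1.17 to -0.90) and the iron-binding lipocalin Lcn2 (18.2 and 7.98 CPM, -1.19, interval -1.50 to -0.88). Zbtb16 and Fkbp5 are classic glucocorticoid targets, a zinc finger repressor and a chaperone of the receptor. Under equal cluster mix Zbtb16 was at -0.86, Fkbp5 at -0.79 and Sult1a1 at -0.61, each under 2-fold.

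Several genes better known from macrophages were read in fibroblasts. Of 25 genes of the lipid-associated macrophage list 9 were higher and 0 lower (median 0.65). Ctsk, the collagen-cleaving cathepsin K that fibroblasts make themselves, was at 202 CPM in normal diet and 614 CPM in high fat diet, 1.60 (1.54 to 1.67), where free macrophage RNA would have given 0.720 and 3.25 CPM. Trem2, the lipid receptor of these macrophages, was at 0.684 and 4.38 CPM where macrophage RNA would have given 2.12 and 7.11 CPM, and Atp6v0d2 at 0.293 and 2.46 CPM against 0.631 and 1.62 CPM. For Atp6v0d2 46.0% of the high fat UMIs lay in 1 cell. Summed macrophage markers were at 34.4 and 62.3 CPM in fibroblasts, and their part in these values was not tested.

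The resident macrophage list gave 2 of 10 higher and 3 lower. Igf1, an insulin-like growth factor that fibroblasts secrete, was at 815 CPM in normal diet and 253 CPM in high fat diet, -1.69 (-1.74 to -1.64), and Maf, a transcription factor, at 193 and 88.2 CPM, -1.13 (-1.22 to -1.04), or -0.77 under equal mix. Gas6, the bridge between dying cells and phagocyte receptors, was higher at 122 and 263 CPM, 1.11 (1.02 to 1.20), and at 0.37 under equal mix. Pf4, a platelet chemokine also made by macrophages, was at 0.684 and 3.00 CPM, where macrophage RNA would have given 3.08 and 5.21 CPM. In macrophages Igf1 went the opposite way from fibroblasts, at 71.7 and 208 CPM, 1.54 (1.24 to 1.85).

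Chemokines and cytokines had 8 of 29 higher and 1 lower in fibroblasts (median 0.11). Cx3cl1 (fractalkine), the membrane-bound ligand of monocyte receptor CX3CR1, was at 0.391 CPM (4 UMIs) in normal diet and 6.55 CPM (133 UMIs) in high fat diet, 4.07 (2.68 to 5.96), and in the other pair at 2.06 (1.72 to 2.43). Cxcl14, a chemokine of resting tissue, was at 84.9 and 215 CPM, 1.34 (1.24 to 1.45). Ccl6 was at 5.37 and 17.1 CPM where macrophage RNA would have given 13.7 and 13.5 CPM, and 88.2% of the Ccl24 UMIs in high fat diet (2 and 85 UMIs) lay in 1 cell. With equal cluster mix Ccl6 was at 0.83. Among 8 type 2 immune genes 4 were higher and 1 lower (median 0.92). The alarmin Il33 was at 27.9 and 68.6 CPM, 1.29 (1.11 to 1.48), and its receptor Il1rl1 at 2.64 and 13.4 CPM, 2.34 (1.77 to 2.97), but under equal cluster mix Il33 was at -0.19 and Il1rl1 at 1.04. Areg, a growth factor of the EGF family, was at 1.27 and 4.43 CPM, 1.80 (0.96 to 2.77), and Il2ra, an interleukin 2 receptor chain, at 6.94 and 2.41 CPM, -1.52 (-2.08 to -0.98), or -0.61 under equal mix. The Areg ratio was 0.17 with doublets kept.

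Genes of vessel signalling and of the cell cycle gave the last fibroblast lists. Of 19 genes of endothelial activation and adhesion 3 were higher and 4 lower (median 0.31). Plvap, which spans the pores of fenestrated vessels, was at 9.28 and 26.2 CPM, 1.49 (1.18 to 1.83), and Apln, the ligand of the apelin receptor, was lower at 12.4 and 1.77 CPM, -2.81 (-3.38 to -2.26), or -1.06 under equal mix. Esm1, an endothelial proteoglycan, was called higher with 6 and 208 UMIs, of which 98.6% in high fat diet lay in 1 cell, and without the richest cells 0 and 3 UMIs were left. Of 26 cell cycle genes 4 were higher and 1 lower (median -0.02), among them Stmn1 (10.6 and 21.9 CPM, 1.05, interval 0.74 to 1.37), Rrm2 (1.56 and 3.64 CPM, 1.22, interval 0.43 to 2.10), Cdk1 (1.07 and 2.66 CPM, 1.31, interval 0.36 to 2.39) and, lower, Mcm2 (3.52 and 1.53 CPM, -1.20, interval -1.95 to -0.47). In normal diet 72.7% of the Cdk1 UMIs lay in 1 cell, and Stmn1 was at 0.85 under equal mix.

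**Figure D4:**
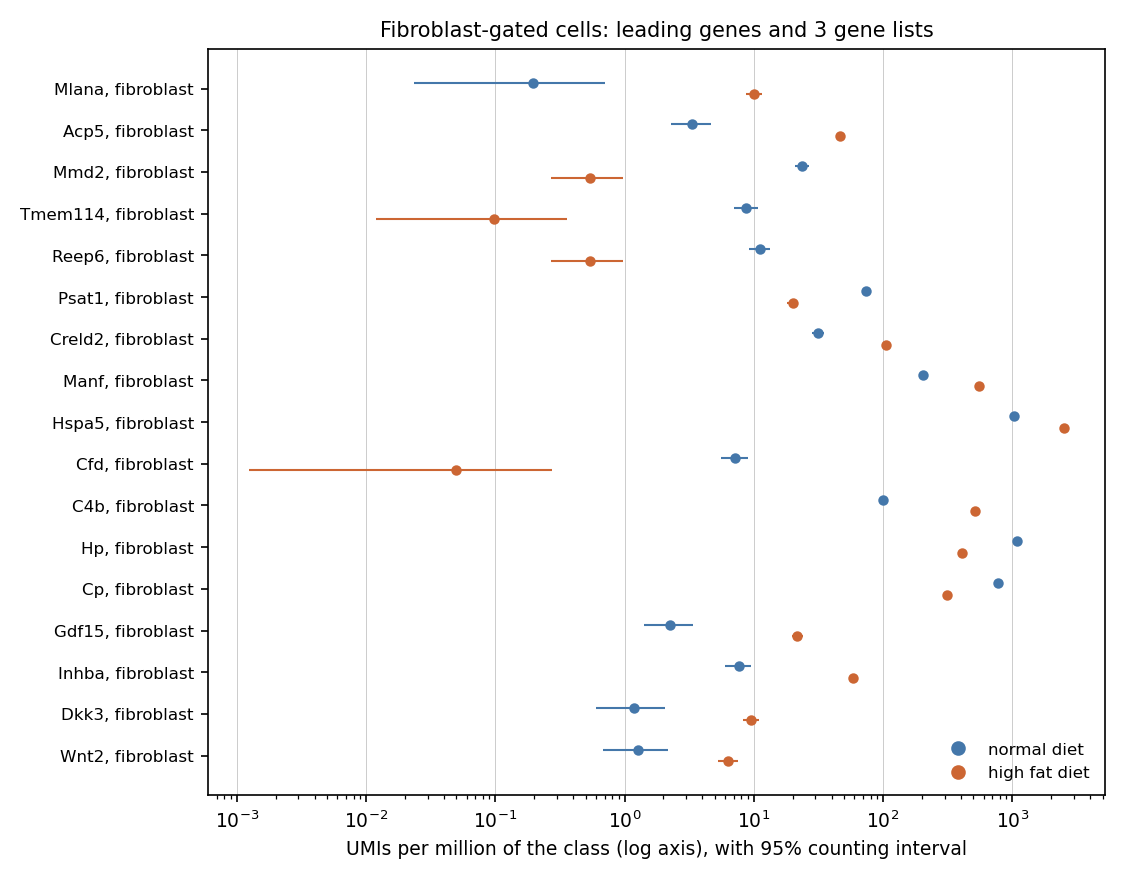
Level of 17 genes in gated fibroblasts in CPM (log axis) in normal diet (blue) and high fat diet (orange), with 95% counting intervals that are hidden by the points where narrow. Hspa5, Manf and Creld2 lie to the right in high fat diet, and Mmd2, Tmem114, Reep6, Hp and Cp to the left.

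Adipocyte transcripts were lower in endothelial cells. Each of the 10 read was called (median -1.92), where 1.92% of all genes were called lower. Cfd was at 829.9 CPM (2383 UMIs) in normal diet and 33.7 CPM (68 UMIs) in high fat diet, -4.62 (-4.99 to -4.27). Car3, the carbonic anhydrase of adipocytes, was at 1079 CPM in normal diet and 102 CPM in high fat diet, -3.41 (-3.62 to -3.20), and Retn (resistin) at 185 and 18.4 CPM, -3.33 (-3.85 to -2.85). Pck1, which makes glycerol for triglyceride, had 48 and 3 UMIs, -3.49 (-5.82 to -1.86). The 7 adipocyte markers of the gate, which include Cfd, Car3 and Retn, summed to 2266 CPM in normal and 217 CPM in high fat endothelium, with medians of 5 and 0 UMIs a cell. This sum was lower in high fat diet in every other class compared too, for example at 100 and 9.82 CPM in macrophages and 13.7 and 1.35 CPM in T cells. The cluster with Retn, Fasn and Cfd in the lead held 73 normal diet and 0 high fat endothelial cells. Without it, in the 2 clusters that both libraries filled, Cfd was still at -4.07 and Car3 at -2.92.

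Lipid synthesis genes shared this direction, with 10 of 28 members of fatty acid uptake and storage lower and 1 higher (median -0.27). Of all genes read in endothelium 1.92% were called lower and 0.622% higher. Scd1, the desaturase that makes oleate, was at 193 CPM in normal diet and 45.6 CPM in high fat diet, -2.08 (-2.41 to -1.76). Fasn, the fatty acid synthase, was at 81.8 and 16.9 CPM, -2.28 (-2.84 to -1.76), G0s2, an inhibitor of lipolysis, at 18.5 and 2.98 CPM, -2.63 (-4.14 to -1.42), and Cidec, which enlarges lipid droplets, at 109 and 35.7 CPM, -1.61 (-1.996 to -1.23), or -0.84 under equal cluster mix. The 1 higher member was Fabp5, an endothelial fatty acid carrier, at 1691 CPM in normal diet and 3567 CPM in high fat diet, 1.08 (1.02 to 1.13). Adipocytes make the 4 lower genes as well, and Cidec is itself an adipocyte marker of the gate. The part of the adipocyte markers in these values was not tested.

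Some genes of detoxification were also lower. Cyp1a1, the classic target of the aryl hydrocarbon receptor, had 97 UMIs in 41 normal diet cells and 0 in high fat diet, 22.7-fold lower with a floor of 3 UMIs in the high fat library. Cyp2e1, a cytochrome that oxidises ethanol, was at 33.1 and 1.49 CPM, -4.47 (-6.78 to -2.88). Of 24 metallothionein and NRF2 target genes 5 were lower and 0 higher (median -0.25). Gsta3, a glutathione transferase, was at 28.9 and 1.49 CPM, -4.28 (-6.59 to -2.68), and the quinone reductase Nqo1 at 23.7 and 6.95 CPM, -1.77 (-2.71 to -0.93). In the 2 clusters that both libraries filled, Cyp2e1 kept 52 of its 95 normal diet UMIs and Gsta3 45 of 83. Cfd kept 1330 of 2383 there, Cyp1a1 88 of 97 and Nqo1 55 of 68. The part of the adipocyte markers in these values was not tested. The metallothioneins Mt1 (369 and 158 CPM, -1.23, interval -1.41 to -1.04) and Mt2 (73.1 and 32.2 CPM, -1.18, interval -1.61 to -0.77) were lower by less, and under equal cluster mix were at -0.56 and -0.84.

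Few endothelial genes were higher. Beside Gdf15 they included Cst6, a cystatin that inhibits cathepsins, at 5.22 CPM (15 UMIs) in normal diet and 22.8 CPM (46 UMIs) in high fat diet, 2.13 (1.26 to 3.07), and Uchl1, a ubiquitin hydrolase, at 6.62 CPM (19 UMIs) in normal diet and 25.3 CPM (51 UMIs) in high fat diet, 1.93 (1.15 to 2.78). Both were spread over cells, with UMIs in 14 and 39 cells and in 18 and 39 cells. The circadian repressor Nr1d1, at 6.97 and 21.8 CPM, 1.65 (0.85 to 2.49), was the 1 gene of the circadian clock list called in any class. The libraries labelled CD169-DTR held 15 high fat endothelial cells, so these values have no second pair.

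In macrophages the 2 diets differed in how the cells were spread over clusters. A cluster led by Upb1, Flrt3 and Ifitm6, with Il6 among its leading genes, held 58.9% of the 124 normal diet and 27.9% of the 512 high fat macrophages. A cluster led by H2-M2, Mfge8 and Wfs1, with Gpnmb among its leading genes, held 9.68% and 35.2%, and a cluster led by Cd209f, Cd209g and Lyve1 13.7% and 15.4%. The equal-mix values for macrophages come from the first of these alone, since it alone had at least 20 cells from each library. The same cluster also held 31.5% of the normal diet and 20.1% of the high fat cDC2, so it is not made of macrophages only. A value is given where that cluster held at least 50 UMIs of the gene, and 216 genes were called there, against 612 in the whole class. Of the 42 macrophage values named by the rule 27 could be read in it, and 10 of these were under 2-fold.

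The 3 genes that led the higher calls in macrophages were Ccl8, a monocyte chemokine, Cd72, a lectin of B cells and macrophages, and H2-M2, a nonclassical MHC class I gene. Ccl8 was at 13.4 CPM (18 UMIs) in normal diet and 212 CPM (1488 UMIs) in high fat diet, 3.98 (3.31 to 4.74), and the shared cluster held 1 and 4 of these UMIs. Cd72 was at 8.97 CPM (12 UMIs) in normal diet and 101 CPM (709 UMIs) in high fat diet, 3.49 (2.68 to 4.45), found in 9 and 137 cells. H2-M2 had 1 and 183 UMIs in 1 and 27 cells, 5.12 (2.63 to 10.43). Cd72 and H2-M2 were also higher in the pair labelled CD169-DTR, 1.73 (1.45 to 2.02) and 2.77 (1.49 to 4.43), while Ccl8 was not, -0.06 (-0.37 to 0.26).

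Genes of lipid-associated macrophages, the cells that digest the lipid of dying adipocytes, were in part higher. Of 28 members 14 were called higher and 1 lower, with a median of 0.94 against 0.09 over all genes of the class. Of all genes 4.81% were called higher and 2.64% lower, and the same shares stand beside the macrophage lists that follow. Spp1 (osteopontin) was at 38.9 CPM (52 UMIs) in normal diet and 166 CPM (1170 UMIs) in high fat diet, 2.10 (1.70 to 2.53). The lysosomal protease Ctsl was at 823 CPM in normal diet and 2355 CPM in high fat diet, 1.52 (1.43 to 1.61), and Acp5 at 53.0 and 210.0 CPM, 1.98 (1.64 to 2.35). In the shared cluster Ctsl was at 0.73, under 2-fold, and Acp5 at 2.99, while Spp1 had 7 and 42 UMIs there. Trem2 was at 424 CPM in normal diet and 1165 CPM in high fat diet, 1.46 (1.34 to 1.58), and Gpnmb, a lysosomal glycoprotein, at 492 CPM in normal diet and 1404 CPM in high fat diet, 1.51 (1.40 to 1.63). Ctsk was at 144 and 533 CPM, 1.89 (1.68 to 2.10), with 97.4% of its normal diet UMIs in 1 cell, and its ratio was 7.01 without the richest cell of each library. The 1 lower member was Dcstamp, a cell fusion receptor, at 116 and 56.0 CPM, -1.05 (-1.32 to -0.77). In the other pair this list had 1 of 28 higher and 1 lower, with a median of 0.00, where 1.88% and 1.40% of all genes were called.

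Several inflammatory mediators were lower. Il6 was at 185 CPM in normal diet and 31.6 CPM in high fat diet, -2.55 (-2.81 to -2.28), and Csf3, the granulocyte growth factor, at 42.6 CPM (57 UMIs) in normal diet and 5.97 CPM (42 UMIs) in high fat diet, -2.83 (-3.44 to -2.23). Il1a was at 133 and 65.9 CPM, -1.01 (-1.27 to -0.76), and was under 2-fold without its richest cells, -0.84, and in the shared cluster, -0.77. Vegfa, the vascular growth factor, was at 64.3 and 22.1 CPM, -1.54 (-1.93 to -1.15), and Col27a1, a fibrillar collagen, at 26.2 and 3.13 CPM, -3.06 (-3.90 to -2.25). In the shared cluster Il6 was at -1.60, Csf3 at -1.38 and Vegfa at -1.94, each still past 2-fold. The chemokine and cytokine list as a whole had 3 of 26 higher and 3 lower (median 0.10), with Ccl12, a monocyte chemokine, higher at 14.2 and 54.2 CPM, 1.93 (1.27 to 2.68).

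Of 11 genes of endothelial activation and adhesion read in macrophages 2 were higher and 3 lower (median -0.46). Vcam1, the adhesion molecule, was at 17.9 and 55.1 CPM, 1.62 (1.02 to 2.28), and Angpt2, a ligand of the endothelial receptor Tie2, had 2 and 79 UMIs, 2.91 (1.01 to 5.98). In the shared cluster Vcam1 was at 0.25. In the pair labelled CD169-DTR Vcam1 had the opposite sign, -1.08 (-1.53 to -0.63).

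Immediate early genes, which cells switch on within minutes of a stimulus or of handling, split by kind. Of 27 read, 4 were higher and 3 lower (median 0.09). Nr4a3, an orphan nuclear receptor, was at 360.1 CPM in normal diet and 73.0 CPM in high fat diet, -2.30 (-2.49 to -2.12), and Egr3, a zinc finger factor, at 78.5 and 20.2 CPM, -1.96 (-2.33 to -1.58). Fos, a subunit of AP-1, was at 359 CPM in normal diet and 913 CPM in high fat diet, 1.35 (1.21 to 1.48), and Klf2 at 231 and 568 CPM, 1.2999 (1.13 to 1.47). In the shared cluster Nr4a3 and Egr3 were at -1.77 and -2.06, while Fos and Klf2 were at 0.51 and 0.31, under 2-fold.

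A pair of recruitment receptors was lower. Ccr2, the receptor that brings monocytes from the blood, was at 501 CPM in normal diet and 186 CPM in high fat diet, -1.43 (-1.57 to -1.29), and Ltb4r1, the leukotriene B4 receptor, at 128 and 35.4 CPM, -1.85 (-2.14 to -1.56). Ccr2 was at -0.76 in the shared cluster. Rgs1, which dampens chemokine receptors, was higher at 391 and 814 CPM, 1.06 (0.93 to 1.19), but was at 0.10 in the shared cluster. These and Klf2 belong to the list of lymphocyte activation and homing, of which 3 of 12 were higher and 2 lower (median 0.17). The sort had removed most F4/80-high macrophages and Ly6C-high monocytes, so these cells are those that passed it.

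Resident macrophage genes had 5 of 21 higher and 1, Retnla, lower (median 0.05). The lectins Cd209d (8 and 253 UMIs, 2.59, interval 1.59 to 3.82) and Cd209g (11 and 294 UMIs, 2.35, interval 1.49 to 3.37) were higher. Marco, a scavenger receptor, had 0 and 63 UMIs, 4.00-fold higher with a floor of 3 UMIs in normal diet, but 55.6% of the 63 lay in 1 cell. In the shared cluster Cd209d had 3 and 6 UMIs, Cd209g 0 and 1, and Retnla a ratio of -0.76. Both lectins led the cluster that held 13.7% and 15.4% of the macrophages.

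In cDC1 the 3 higher genes named by the rule were Retnla, Cxcl2 and Lpl, each made by macrophages too. Retnla was at 10.1 CPM (32 UMIs) in normal diet and 76.3 CPM (181 UMIs) in high fat diet, 2.91 (2.36 to 3.50), with 56.9% of its high fat UMIs in 1 cell. Cxcl2, a neutrophil chemokine, was at 6.34 and 52.3 CPM, 3.04 (2.35 to 3.803), and Lpl, the lipoprotein lipase, at 6.34 and 38.8 CPM, 2.61 (1.90 to 3.39). Macrophage markers summed to 172 and 246 CPM in the 2 cDC1 groups, and their part in these values was not tested. Lpl and Cxcl2 had the same sign in the other pair, 2.99 (1.98 to 4.17) and 2.59 (1.82 to 3.45).

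Lower in cDC1, beside Sqle, were Il2rb, a chain of the interleukin 2 and 15 receptors, and Ccl17, a chemokine for CCR4-bearing T cells. Il2rb had 53 and 3 UMIs, the 3 of them in 1 cell, -3.73 (-6.06 to -2.11). Ccl17 was at 93.9 and 26.5 CPM, -1.82 (-2.24 to -1.43), and in the other pair at -1.50 (-1.92 to -1.10). The chemokine list of cDC1 as a whole had 3 of 13 genes higher and 1 lower (median 0.46), where 0.806% and 0.6% of all genes were called.

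Beside Meg3, the higher genes of cDC2 that the rule named as leaders were Ms4a6d and Cd7. Ms4a6d, a membrane protein of monocytes and macrophages, was at 24.6 CPM (59 UMIs) in normal diet and 94.9 CPM (133 UMIs) in high fat diet, 1.95 (1.49 to 2.41). Cd7, an immunoglobulin family receptor, was at 21.7 and 83.5 CPM, 1.94 (1.46 to 2.44). Cd7 had the opposite sign in the other pair, -0.81 (-1.23 to -0.41). Cell cycle genes had 5 of 23 higher and 0 lower (median 0.66), where 0.945% of all genes were called higher and 1.71% lower. Ube2c was at 31.3 and 73.5 CPM, 1.23 (0.79 to 1.68), Birc5 (survivin) at 30.5 and 68.5 CPM, 1.17 (0.71 to 1.63), and the replication helicase genes Mcm3 and Mcm5 at 21.7 and 44.96 CPM, 1.05 (0.50 to 1.61), and 19.6 and 40.0 CPM, 1.03 (0.44 to 1.62). They came from few cells, with Ube2c in 9 and 14 cells, and its ratio was -0.11 with a gate margin of 0.1. In cDC1 1 of 31 cell cycle genes was called higher (median 0.54), where 0.806% of all genes were.

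NK cells showed the opposite for the same list, with 5 of 20 cell cycle genes lower and 0 higher (median -0.13). Of all genes read in NK cells 0.862% were called lower and 0.584% higher. Ube2c was at 128 CPM (90 UMIs) in normal diet and 26.9 CPM (17 UMIs) in high fat diet, -2.25 (-3.09 to -1.49), in 7 and 4 cells. Birc5 was at 115 and 49.1 CPM, -1.23 (-1.87 to -0.61), Mki67, the proliferation antigen, at 97.9 and 42.8 CPM, -1.20 (-1.89 to -0.53), and Top2a, the replication topoisomerase, at 123 and 58.6 CPM, -1.07 (-1.67 to -0.50). Hist1h2ap, a replication histone with near-identical copies, was at 153 and 33.3 CPM, -2.20 (-2.95 to -1.52). In the 1 cluster that both libraries filled, 92.0% of the normal diet and 96.2% of the high fat NK cells, Ube2c had 0 and 0 UMIs, Birc5 1 and 1, Mki67 1 and 2 and Top2a 5 and 6, too few for a ratio, so nearly all UMIs of these 4 genes lay in the cells outside it.

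Among the other NK genes, Ninj1, a membrane protein that ruptures dying cells, was at 45.4 CPM (32 UMIs) in normal diet and 116 CPM (73 UMIs) in high fat diet in 27 and 51 cells, 1.35 (0.73 to 2.00), and Sqstm1, the autophagy receptor p62, at 119 and 253 CPM, 1.09 (0.70 to 1.49). Fabp4, a fatty acid carrier of adipocytes, endothelium and macrophages, was at 32.6 and 146 CPM, 2.16 (1.49 to 2.89), and at -1.40 with a gate margin of 0.1. Il1b was at 219.9 and 25.3 CPM, -3.12 (-3.96 to -2.37), and Retnla at 136 and 15.8 CPM, -3.10 (-4.21 to -2.16). Of the 155 and 16 Il1b UMIs 11 and 5 lay in the cluster that both libraries filled, and with cluster-based classes the Il1b ratio was 1.56. Retnla was at -0.30 (-1.82 to 1.15) without the richest cell on each side. Macrophage markers summed to 76.6 and 20.6 CPM in these NK cells, and macrophage RNA at that rate would have given 132 and 7.998 CPM of Retnla. Its part in these values was not tested.

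The CD8 chains led the higher genes of T cells. Cd8a was at 39.2 CPM (60 UMIs) in normal diet and 189 CPM (420 UMIs) in high fat diet, 2.27 (1.88 to 2.69), and Cd8b1, the other chain of the CD8 coreceptor, at 81.7 CPM in normal diet and 332 CPM in high fat diet, 2.02 (1.75 to 2.31). Cd8a was detected in 28 and 148 cells. A cluster led by Igfbp4, Actn1 and Cd8b1 held 34.6% of the normal diet and 68.5% of the high fat T cells, and a cluster led by Kcnk1, Tcrg-C1 and Cd163l1, genes of gamma delta T cells, 47.7% and 18.05%. Under equal cluster mix the ratios were 1.39 and 1.25. In the other pair both were higher too, 1.17 (0.64 to 1.71) and 0.63 (0.25 to 1.00). Coch, a secreted protein first known from the inner ear, was higher with 5 and 51 UMIs in 2 and 27 cells, 2.82 on the log2 scale.

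Lower in T cells were Flrt3, Acod1, the itaconate-making enzyme of activated macrophages, at 37.9 and 5.86 CPM, -2.69 (-3.68 to -1.81), and Nav2, a cytoskeletal guidance protein, at 63.4 CPM (97 UMIs) in normal diet and 16.7 CPM (37 UMIs) in high fat diet, -1.93 (-2.51 to -1.36). Nav2 was spread over 60 and 30 cells, Acod1 over 16 and 9 cells. Macrophage markers were at 432 and 308 CPM in T cells, and their part in the Acod1 and Flrt3 values was not tested.

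The ILC2, which sustain type 2 immunity in lean fat, had 30 genes higher and 29 lower of 2041, 1.47% and 1.42%. Cd27, a costimulatory receptor, was at 82.6 CPM (53 UMIs) in normal diet and 236 CPM (51 UMIs) in high fat diet, 1.51 (0.93 to 2.09), Tprgl, a synaptic vesicle protein, at 164 and 393 CPM, 1.26 (0.83 to 1.69), and Jun, a subunit of AP-1, at 210.4 and 494 CPM, 1.23 (0.85 to 1.61). Ier3, an immediate early survival gene, was lower with 121 and 2 UMIs, -4.35 (-7.41 to -2.47), and Cd24a, a small glycoprotein of immature cells, with 68 and 2 UMIs, -3.52 (-6.59 to -1.61). Hspa1a, the inducible heat shock protein with a near-identical copy, had 89 and 0 UMIs. With a floor of 3 UMIs in high fat diet its level was 10.0-fold lower. Of the 89 UMIs 94.4% lay in 1 cell. Without that cell 5 and 0 UMIs were left, with an interval that reached 1.69 on the log2 scale and so held 0. Of 11 type 2 immune genes 0 were called here, with 2 above and 9 below 0 (median -0.29).

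In B cells Vpreb3, a partner of the immunoglobulin light chain in young B cells, was higher at 27.2 CPM (53 UMIs) in normal diet and 124 CPM (103 UMIs) in high fat diet in 36 and 53 cells, 2.19 (1.70 to 2.69). Apoe, the apolipoprotein, was at 264 CPM in normal diet and 661 CPM in high fat diet, 1.33 (1.15 to 1.503), where macrophage RNA would have given 144 and 57.1 CPM, and was higher in the other pair as well, 2.12 (1.81 to 2.43). Hspa1a was lower at 114 CPM (222 UMIs) in normal diet and 3.61 CPM (3 UMIs) in high fat diet, -4.98 (-7.27 to -3.41), and stayed near there without its richest cell, -5.16. Of 10 MHC class II genes 10 lay above 0 (median 0.45), with 1 called, the transactivator Ciita, at 35.97 and 81.9 CPM, 1.19 (0.68 to 1.69). Of all genes read in B cells 0.708% were called higher.

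Several genes of phagocytes were among the 154 lower in B cells, and they lay in few cells. Il1b was at 730.2 CPM in normal diet and 237 CPM in high fat diet in 51 and 24 cells, -1.62 (-1.84 to -1.41), Ccl6 at 293 and 84.3 CPM, -1.80 (-2.18 to -1.44), Ccl9 at 273 and 92.8 CPM, -1.56 (-1.92 to -1.21), and Il1rn, the interleukin 1 receptor antagonist, at 58.1 and 10.8 CPM, -2.42 (-3.59 to -1.45). Fcrls, a receptor of resident macrophages and microglia, was at 106 and 16.9 CPM, -2.65 (-3.55 to -1.87). The chemokine and cytokine list had 5 of 11 lower and 0 higher (median -0.97), where 2.95% of all genes were called lower and 0.708% higher. In the 1 cluster that both libraries filled, 91.4% and 95.9% of the B cells, Ccl6 had 12 and 5 UMIs, Ccl9 19 and 16, Il1rn 4 and 3 and Fcrls 2 and 2, too few for a ratio, and Il1b was at -0.61. Macrophage markers summed to 170.1 and 114 CPM in B cells. Of the called sterol genes of B cells, Cyp51 had a ratio of -1.38 in this cluster, while Idi1 had 37 and 6 UMIs and Hmgcs1 34 and 10.

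Across classes, 50 of the genes allowed by the naming rule were called higher in 1 class and lower in another. Of the genes so allowed, 837 were called higher and 892 lower in at least 1 class. Pgf, the placental growth factor that binds the receptor FLT1, was at 59.9 CPM (172 UMIs) in normal diet and 158 CPM (319 UMIs) in high fat diet in endothelium, 1.40 (1.13 to 1.68), and at 18.9 CPM (193 UMIs) in normal diet and 2.07 CPM (42 UMIs) in high fat diet in fibroblasts, -3.19 (-3.71 to -2.70). Cx3cl1 did the reverse, at 25.1 and 7.94 CPM in endothelium, -1.66 (-2.54 to -0.86), and 4.07 in fibroblasts. The fibroblast level of Cx3cl1 in high fat diet thus came near the endothelial level, while Pgf in fibroblasts was further below the endothelial one. Both genes kept these directions under equal cluster mix, Pgf at 1.52 and -2.73, Cx3cl1 at -1.73 and 3.88. Without the richest cells Pgf was at 1.79 in endothelium and -3.23 in fibroblasts.

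Other divergent genes were carried by fewer cells. Ppp1r1a, an inhibitor of protein phosphatase 1, had 0 and 51 UMIs in macrophages, 3.24-fold higher with a floor of 3 UMIs in normal diet. It was lower in fibroblasts, 5.28 and 0.394 CPM, -3.74 (-5.03 to -2.66). Cxcl2 was higher in cDC1 and lower in cDC2, where it was at 564 CPM in normal diet and 253 CPM in high fat diet, -1.15 (-1.33 to -0.98), and at -0.47 under equal mix. Lpl was higher in cDC1 and lower in B cells, at 248 and 66.3 CPM, -1.91 (-2.34 to -1.50), from 24 and 18 cells. Areg and Clec4a2, a lectin of myeloid cells, were higher in fibroblasts and lower in B cells, where Areg had 65 and 3 UMIs and Clec4a2 56 and 4 UMIs. Clec4a2 in fibroblasts, at 0.391 and 2.41 CPM, is set beside the 1.28 and 1.85 CPM that macrophage RNA would have given, whose part was not tested. In the 1 shared B cell cluster Lpl had 12 and 15 UMIs, Areg 2 and 2 and Clec4a2 1 and 1, too few for a ratio, so nearly all of their normal diet UMIs lay in the cells outside it.

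**Figure D5:**
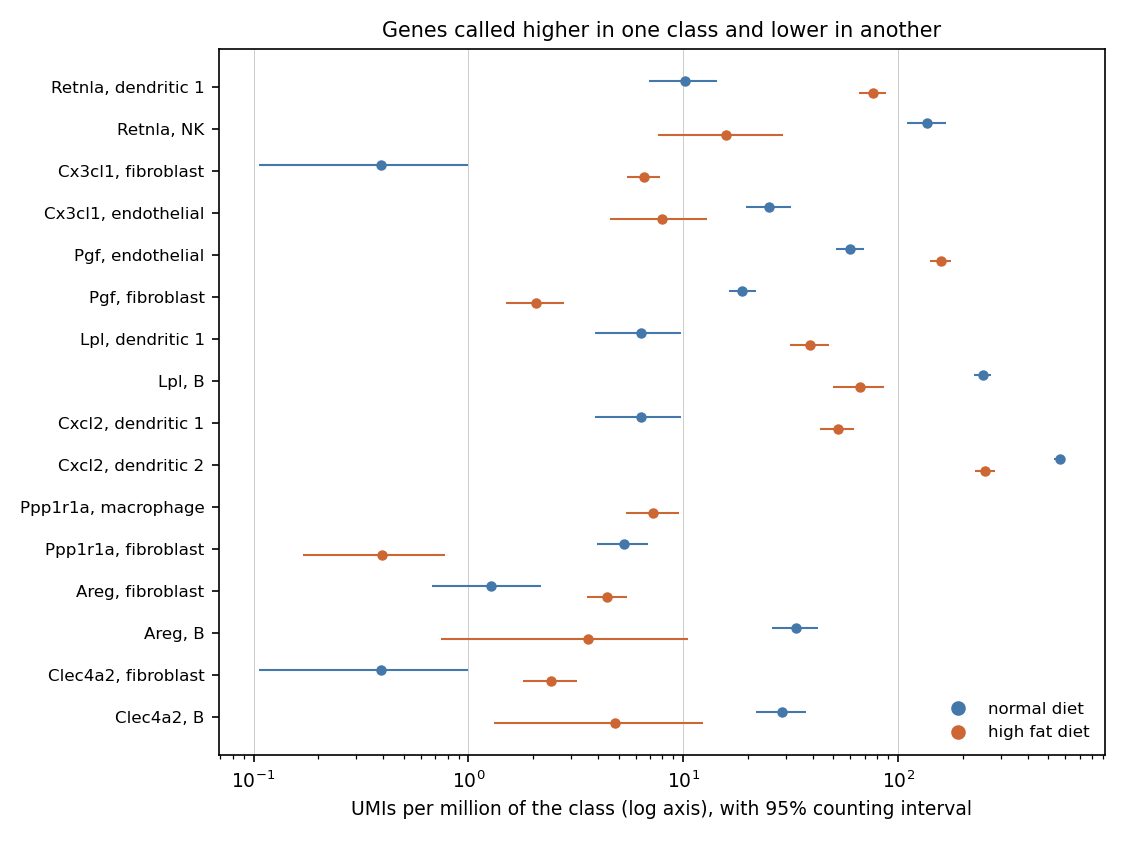
Levels in CPM (log axis, 95% counting intervals) in normal diet (blue) and high fat diet (orange) of the 8 genes called higher in 1 class (upper line of each pair) and lower in another (lower line). Pgf is higher in endothelium (59.9 and 158 CPM) and lower in fibroblasts (18.9 and 2.07 CPM); Ppp1r1a in normal diet macrophages had 0 UMIs and has no point.

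Of the 72 genes of the respiratory chain read, 0 were called in fibroblasts, where 3.04% of all genes were called higher and 4.03% lower, and 0 in macrophages, where 4.81% and 2.64% were. The list had 0 of 72 called in endothelium, both dendritic classes, T and B cells as well, 0 of 71 in NK cells and 0 of 65 in ILC2, with medians between -0.11 and 0.19. In most of these classes so few genes were called at all that a count of 0 is near the background. Heat shock and chaperone genes had 0 of 22 called in fibroblasts, 0 of 21 in endothelium, 0 of 15 in cDC1, 0 of 18 in cDC2 and 0 of 14 in NK cells. In that list 1 of 20 was lower in macrophages, 1 of 19 in T cells and 2 of 16 in B cells, and in ILC2 1 of 12 was higher and 2 lower. Of all genes 2.64% were called lower in macrophages, 1.13% in T cells and 2.95% in B cells, and in ILC2 1.47% were higher and 1.42% lower. Of 28 immediate early genes 0 were called in endothelium and 0 of 27 in fibroblasts. The calls in that list outside macrophages were 2 of 25 higher in T cells, 2 of 20 higher and 1 lower in ILC2, and 1 lower each of 25 in cDC2 and 24 in B cells. Of all genes 1.37% were called higher in T cells and 1.71% lower in cDC2. Calls of 1 gene in such short lists cannot be told from these shares. For the genes named here, the pair labelled CD169-DTR had the same sign in 41 of 52 values in fibroblasts, 22 of 38 in macrophages, 7 of 7 in T cells, 4 of 10 in cDC1, 7 of 12 in cDC2, 2 of 8 in NK cells and 1 of 2 in B cells. Only named values that could be read in that pair count, 7 of 15 in T cells and 2 of 23 in B cells. The same share over all genes of a class is not given here, so these counts do not measure agreement.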

How the data were processed

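Raw UMI counts per gene and barcode were deposited by the authors in 1 matrix of 31053 genes and 4 libraries, made with Cell Ranger 3.1.0 on mm10, per the submitters' processing notes. The 32 records are 8 for each library, and each barcode's library was taken from its suffix and the deposited aggregation order. Whether aggregation brought the libraries to equal read depth is not stated. The sources used here do not say how reads shared by near-identical genes were assigned. No normalized values were used. Barcodes passed with 300 or more genes and 10% or less of their UMIs from mitochondrial genes. Copies of a barcode sequence with under 10% of the UMIs of its deepest counterpart in another library were removed. So were doublets called by Scrublet in scanpy 1.11.5 (1.31% and 1.29%), at an expected rate of 5.4%.

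UMIs were summed over the cells of a gated class and divided by the class total, and log2 ratios were given exact conditional binomial intervals (scipy 1.17.1). A gene with 0 UMIs on a side was set at a floor of 3 UMIs there. Clusters were made with Leiden (leidenalg 0.10.2) at a resolution of 1.5, and equal-mix values used clusters with at least 20 cells from each library, where these held at least 50 UMIs of the gene. TMM factors came from edgeR 4.0.16. The interval code was tested on simulated counts. Total UMIs over all barcodes were 37655128 in normal and 49142626 in high fat diet.

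Genes were named by a rule. It took up to 10 genes called in most classes each way and 8 genes called opposite ways. It also took 3 leaders each way in a class, ranked by the interval bound nearest 0. These parts left out class markers and the interferon, matrix and cytotoxic lists. The last part took up to 4 members of each other list with at least 5 calls in a class. List members could be class markers, among them Cfd, Car3, Retn, Cidec, Ccr2 and Il1rl1. Values outside the rule were chosen after they were seen: Ciita in B cells, Fabp5 and Nr1d1 in endothelium, Wnt5a, Bmp7, Nog, Lcn2 and Hmgcs1 in fibroblasts, Hmgcs1 in cDC2, and Dcstamp, Gpnmb, Trem2 and Igf1 in macrophages. A few genes that the rule chose are not reported here. The comparison, the gene lists and the rule were chosen with earlier results of these data known. Of 14 alternatives, keeping copies, removing every shared barcode and leaving out each gene's richest cell were added after seeing the data.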

Additional observations from a re-analysis of the deposited data

Results flagged for a closer look

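Among the named values reported here that could be read in both pairs, 15 were called in opposite directions in the 2 pairs. They lay in fibroblasts, macrophages, dendritic and NK cells, at least 2-fold each way with intervals that left out 0. The difference between the pairs was not tested, since each has 1 library a side, and no cause is weighed. Values are log2 ratios of high fat over normal diet, first labelled WT, then labelled CD169-DTR.

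Of these, 5 were values of genes of sterol synthesis, lower in the pair labelled WT and higher in the other. Idi1 was at -1.19 and 2.35 in fibroblasts and at -1.98 and 1.41 in cDC1. Cyp51 was at -2.44 and 1.63 in cDC2 and at -1.50 and 2.34 in cDC1. Fdps was at -1.05 and 1.75 in cDC1.

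Cell cycle genes of NK cells were lower in the pair labelled WT and higher in the other, with Ube2c at -2.25 and 2.40, Birc5 at -1.23 and 1.94, Mki67 at -1.20 and 1.39, and Top2a at -1.07 and 1.11. Ube2c in macrophages had the reverse, 1.01 and -1.24, though the first value was 0.34 with every cell scaled to the same total. Among single genes, Acp5 was at 1.41 and -2.30 in cDC2, Cxcl2 at -1.15 and 1.73 in cDC2, and Plin4 at 1.91 and -1.09 in fibroblasts. Ctsk was at 1.89 and -1.59 and Vcam1 at 1.62 and -1.08 in macrophages.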

How the results depend on the processing

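No paired analysis was possible because each group is 1 library, whose 8 records share their numbers across groups as parts of the same library. The limits are 1 library a side, no replicate error, a sort that shapes the classes, and classes of as few as 70 cells. The called counts were 789 genes in fibroblasts, 192 in endothelium, 612 in macrophages, 89 in cDC1, 143 in cDC2, 52 in NK cells, 166 in T cells, 59 in ILC2 and 191 in B cells, with 9 genes higher and 26 lower in at least 3 classes. These 11 counts stayed within 1.5 times under TMM scaling, with doublets or shallow copies kept, with all shared barcodes removed, with a margin of 0.1 and without each gene's richest cell.

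Counts followed the UMI minimum. At 200 UMIs they were 412 in fibroblasts, 46 in endothelium, 233 in macrophages, 18 in cDC1, 26 in cDC2, 3 in NK cells, 35 in T cells, 4 in ILC2 and 25 in B cells, with 1 gene higher and 6 lower in at least 3 classes. At 20 UMIs they were 398 in endothelium, 259 in cDC1, 347 in cDC2, 173 in NK cells, 373 in T cells, 171 in ILC2 and 364 in B cells, with 26 higher and 45 lower. With cells thinned to 2000 UMIs they were 433 in fibroblasts, 112 in endothelium, 221 in macrophages, 26 in cDC1, 62 in cDC2, 30 in NK cells, 106 in T cells, 23 in ILC2 and 53 in B cells, with 2 higher and 5 lower. These 3 settings change how many genes can be read or leave fewer UMIs.

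With every cell scaled to the same total T cells had 309 and 15 genes were higher in at least 3 classes. With equal cluster mix macrophages had 216, B cells 87, and 8 genes were lower; fewer genes reach 50 UMIs there. With a margin of 0.4 B cells had 99, with 4 genes higher and 8 lower. With classes from clusters B cells had 96 and 6 genes were lower, and under the stricter cell filter 5 were higher. Macrophages by cluster had too few normal diet cells for a value. The cause of these shifts was not tested.

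Directions turned for 11 values, and the cause was not tested. Equal cluster mix gave Retnla 0.59 in endothelium, Il33 -0.19 in fibroblasts and a median of 0.33 for adipocyte transcripts there. It could be read for 159 of the 213 named values, and 46 of these came under 2-fold. A margin of 0.1 gave Ube2c -0.11 in cDC2 and Fabp4 -1.40 in NK cells, and a margin of 0.4 gave the sterol median of macrophages 0.064. Classes from clusters gave Retnla 0.58 in endothelium and 1.19 in T cells, and Il1b 1.56 in NK cells. Without the richest cells Lyz1 was at 1.83 in endothelium, from 2 and 5 UMIs. Hspa1a in ILC2 was then at 0.83 with a floor of 3 UMIs in high fat diet, from 5 and 0 UMIs.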

Other observations

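Classes with under 50 cells in a library were not compared by gene, and only their shares are given. Of the gated immune cells, migratory dendritic cells were 4.32% in normal and 2.18% in high fat diet, neutrophils 3.09% and 1.87%, plasma cells 2.08% and 1.19%, plasmacytoid dendritic cells 1.12% and 0.259%, mast cells 1.12% and 0.727%, and monocytes 0.393% and 0.778%. Of the non-immune cells, mesothelial cells were 5.77% and 1.13%, and cells gated as adipocytes 3.20% and 0.217% (exact binomial intervals 2.46 to 4.09% and 0.0706 to 0.506%). The sort can set these shares too.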
